A study of Mus musculus with 98 samples.

Results

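Neuronal activity switches on a small set of genes whose products act at the synapse or are released from the neuron. Of these, 10 genes were followed: Npas4, Arc, Homer1, Nptx2, Nrn1, Inhba, Vgf, Scg2, Pcsk1 and Rgs2. They were chosen by name, were present in all 6 count tables and passed the filter on low counts in every fit, out of 18162 genes tested in at least 1 fit. Their messenger RNA was compared across stimulation, culture day, tau, the ACSS2 virus and mouse groups.

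Calcium entering an active neuron drives kinases that act on transcription factors already present, among them CREB, which binds cyclic AMP response elements. Immediate early genes such as Npas4 and Arc respond without new protein synthesis, and Npas4 is itself a transcription factor for later activity genes. In the hippocampus these genes are known from memory formation: Arc promotes removal of AMPA receptors from synapses, and the secreted products act on synapses and neighbouring cells.

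RNA sequencing covered 98 libraries in 22 groups. Primary hippocampal neurons, labelled embryonic and CD1 for the unstimulated libraries, received a PhP.eB virus that raises ACSS2 (upACSS2) or the empty vector on day 5, and a preparation named hAD-tau, or PBS, on day 7. ACSS2 makes acetyl-CoA from acetate. Resting neurons were taken on day 9 and day 21, and neurons labelled stimulated on day 21, with either virus and with PBS or tau, 3 libraries in each of 12 groups. What the stimulation was is not given in the sources used here. Day 21 neurons without virus had 4 tau and 3 PBS libraries. All mice were male and carried vector or upACSS2. Aged C57BL6 mice (22 to 23 months, 12 for each virus, whole hippocampus) were taken after remote context recall and 2 months of virus. Their injection is labelled at 21 to 22 months of age. The 10-month C57BL6 mice (6 upACSS2 and 5 vector, dorsal hippocampus) were taken after fear conditioning and 2 weeks of virus. PS19 mice, which carry a mutant human tau transgene under the Prnp promoter, were taken after contextual recall and 1 or 6 months of virus (3.5, or 8.5 to 9, months old). They were 5 in each of 4 groups, and no group without the transgene was compared with them. For every mouse the labels give harvest at 30 minutes, and for PS19 mice recall at 24 hours.

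Groups follow the sample titles, which the treatment entries contradict for resting vector neurons in tau, resting upACSS2 neurons in PBS, and the PS19 mice at 1 month (all 5 upACSS2 mice and vector replicate 5). Those upACSS2 mice are labelled whole hippocampus and the other PS19 mice dorsal, so at 1 month the virus cannot be told apart from the dissected tissue. Total counts ran from 5075099 to 39985460 per library. Acss2 in resting day 9 neurons, as CPM (counts scaled to a common library size, with TMM factors), was 41.0 to 51.0 with vector and 1488 to 1957 with upACSS2 in PBS, and vector and upACSS2 libraries did not overlap in any culture comparison. In mice it was 40.0 to 53.7 with vector and 46.7 to 61.5 with upACSS2 when aged. It was 42.3 to 48.8 and 49.9 to 59.3 at 10 months, 51.5 to 66.3 and 60.1 to 1465 in PS19 mice at 1 month, and 43.1 to 56.0 and 44.9 to 237 at 6 months. Nothing says that culture replicates were separate cultures, so their p-values may measure technical spread.

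RefSeq promoters (GRCm38.p6) were given for 6 of the 10 genes, in 7 entries. Shown are 5 of these genes, each higher after stimulation in at least 1 set of neurons, because their promoters hold the core of the cyclic AMP response element (CRE), TGACG. Each run is the 200 bases before the start site of its entry, 5′ to 3′ on the strand of the gene. Capitals mark the CRE core on either strand. The regions are chr19:4989972-4990171 (minus) for Npas4, chr13:93303557-93303756 (plus) for Homer1, chr1:79440027-79440226 (minus) for Scg2, chr13:75089657-75089856 (plus) for Pcsk1 and chr1:144004150-144004349 (minus) for Rgs2.
Npas4: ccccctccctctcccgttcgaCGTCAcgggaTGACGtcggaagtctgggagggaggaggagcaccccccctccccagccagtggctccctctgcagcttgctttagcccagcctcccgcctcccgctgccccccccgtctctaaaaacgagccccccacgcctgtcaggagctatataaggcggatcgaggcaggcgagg
Homer1: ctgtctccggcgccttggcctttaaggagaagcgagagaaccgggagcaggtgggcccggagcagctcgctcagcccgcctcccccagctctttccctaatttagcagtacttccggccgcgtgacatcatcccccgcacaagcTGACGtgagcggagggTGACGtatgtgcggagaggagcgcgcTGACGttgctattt
Scg2: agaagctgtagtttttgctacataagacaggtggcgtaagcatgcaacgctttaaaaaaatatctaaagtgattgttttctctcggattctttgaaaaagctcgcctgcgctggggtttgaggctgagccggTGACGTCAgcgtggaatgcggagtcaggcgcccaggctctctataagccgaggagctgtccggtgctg
Pcsk1: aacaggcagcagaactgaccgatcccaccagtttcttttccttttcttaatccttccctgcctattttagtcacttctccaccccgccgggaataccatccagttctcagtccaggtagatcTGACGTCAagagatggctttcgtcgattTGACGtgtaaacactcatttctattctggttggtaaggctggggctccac
Rgs2: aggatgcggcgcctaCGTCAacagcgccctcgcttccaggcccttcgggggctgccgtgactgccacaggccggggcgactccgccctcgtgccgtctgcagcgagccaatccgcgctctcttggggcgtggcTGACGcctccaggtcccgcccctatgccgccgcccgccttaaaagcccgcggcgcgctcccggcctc

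The palindromic CRE, TGACGTCA, was found in Scg2 and Pcsk1, beginning at positions -68 and -78 from the start site of the entry. It lay in 1.79% of 32851 promoters searched over the same 300 bases, 250 before and 50 after the start. The core TGACG, which each palindrome also holds, was found in these 5 genes and in 20.8% of all promoters. Inhba and the second Homer1 entry held none. AP-1 sites (TGANTCA, 7.81% of promoters) and the CArG box (1.63%) were in none of the 7 entries, and the NPAS4 core TCGTG (16%) was in Rgs2 alone. Both strands were searched, and a match describes letters only. Start sites are those of the entries, and the Npas4 and Homer1 runs lie inside the gene bounds of the GENCODE annotation. The Scg2, Pcsk1 and Rgs2 runs lie partly inside theirs. The Scg2 palindrome is within the gene bounds and the Pcsk1 palindrome outside them. Arc, Nptx2, Nrn1 and Vgf had no entry. In the GENCODE annotation of GRCm38 the genes without a promoter shown are Inhba at chr13:16011851-16031621, Arc at chr15:74669083-74672570, Nptx2 at chr5:144545902-144557478, Nrn1 at chr13:36725361-36735131 and Vgf at chr5:137026392-137033351.

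Stimulated neurons held far more Npas4 and Arc than resting day 21 neurons, and more Rgs2, Inhba and Homer1. These 5 genes were higher in each of the 4 sets (edgeR quasi-likelihood test, Benjamini-Hochberg adjusted p under 0.05). With vector in PBS 9 of 10 were higher, against 4.65% of all genes. The count was 7 with vector in tau (background 2.38%), 5 with upACSS2 in PBS (2.37%) and 6 with upACSS2 in tau (1.74%). No member was lower. The libraries came in separate tables whose raw counts were joined, so stimulation and table cannot be told apart in any of these values.

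**Figure D1:**
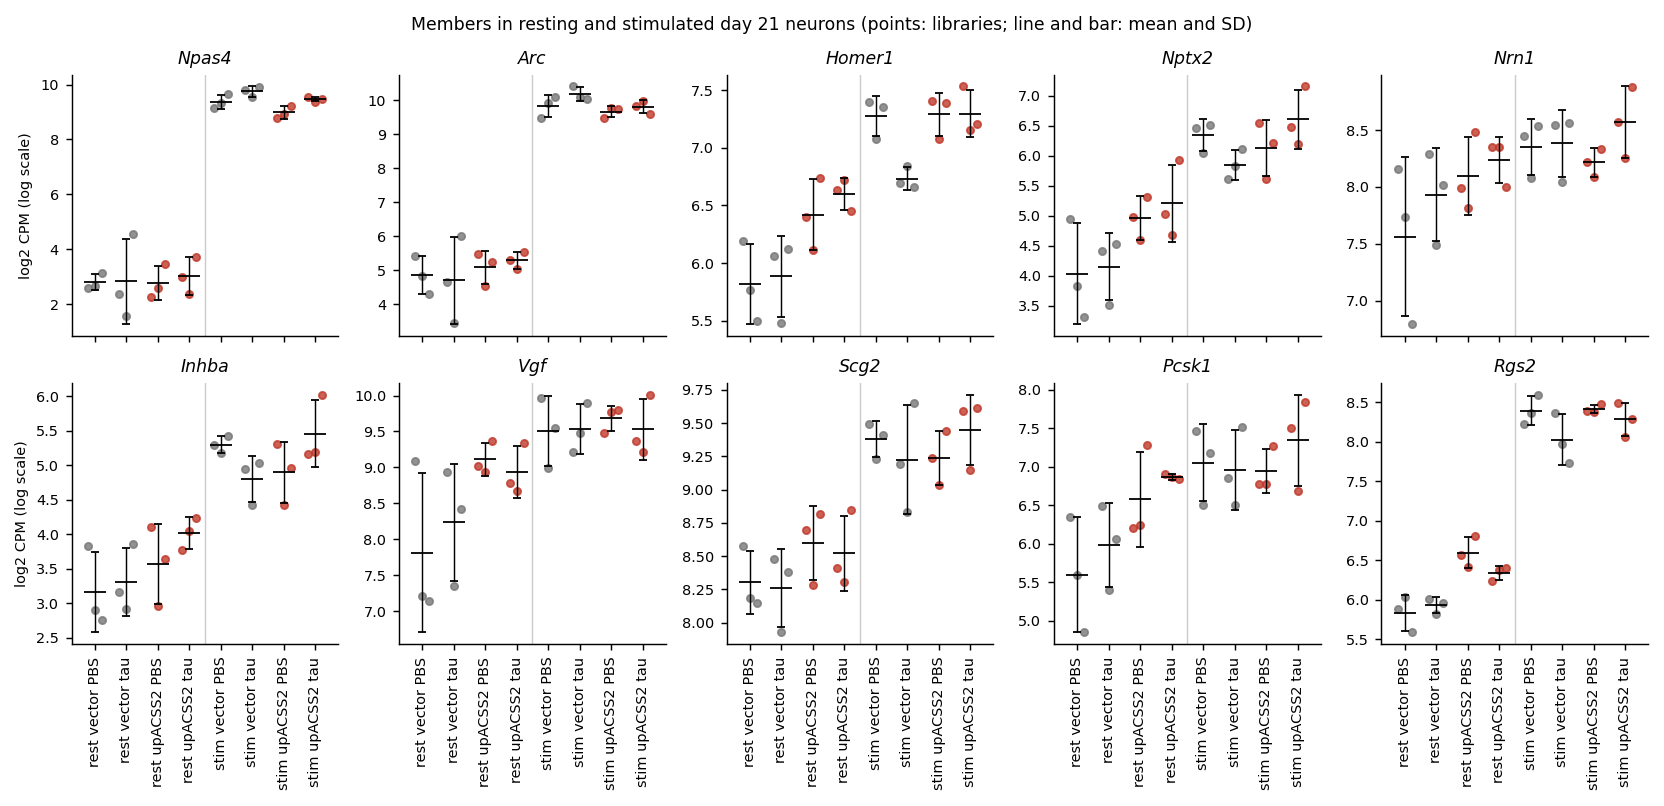
Levels of the 10 genes in resting and stimulated day 21 neurons as log2 CPM (vertical axis), in 8 groups of 3 libraries (points) with mean and SD, grey for vector and red for upACSS2. For Npas4 with vector in PBS the resting libraries sit at 6.03 to 8.68 CPM and the stimulated ones at 566 to 799.

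Npas4, the transcription factor of the set, moved most. In vector neurons in PBS it was 6.03, 6.27 and 8.68 CPM at rest and 566, 638 and 799 when stimulated. The groups did not overlap, and the log2 fold change was 6.57 ± 0.57 (SE, adjusted p 9.95e-08, edgeR). In tau the resting values were 5.15, 2.88 and 23.6 CPM and the stimulated ones 882, 748 and 963. The third resting library was the high one, still far below the stimulated libraries (log2 fold change 6.35). With upACSS2 the log2 fold changes were 6.15 in PBS and 6.35 in tau.

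Arc, which acts at the postsynapse, was 43.1, 28.5 and 19.9 CPM at rest and 711, 957 and 1088 when stimulated with vector in PBS. Resting and stimulated libraries did not overlap in any of the 4 sets. The log2 fold changes were 4.92 ± 0.46 with vector in PBS, 5.11 ± 0.46 with vector in tau, 4.53 ± 0.45 with upACSS2 in PBS and 4.51 ± 0.45 with upACSS2 in tau (SE, largest adjusted p 1.11e-06, edgeR).

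Homer1, a scaffold that ties metabotropic glutamate receptors to the postsynaptic density, was 73.1, 54.4 and 45.2 CPM at rest and 168, 135 and 163 when stimulated with vector in PBS, without overlap. Its log2 fold change there was 1.44 ± 0.19 (SE, adjusted p 3.08e-05, edgeR), and 0.82, 0.86 and 0.70 with vector in tau, upACSS2 in PBS and upACSS2 in tau. Counts are per gene, so the short activity-induced Homer1a form cannot be told apart from the long forms.

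Nptx2, a secreted pentraxin that clusters AMPA receptors, was 30.9, 14.2 and 9.90 CPM at rest and 88.4, 65.6 and 91.6 when stimulated with vector in PBS (log2 fold change 2.17 ± 0.40, SE, adjusted p 0.00169, edgeR). It rose with vector in tau too, by 1.64. With upACSS2 the values of 1.18 in PBS and 1.36 in tau missed the threshold (adjusted p 0.0974 and 0.0727, edgeR). DESeq2 called Nptx2 in both of these sets, and so did the fit with the replicate number as a block.

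Inhba, which encodes the subunit of activin A, was 14.1, 7.38 and 6.70 CPM at rest and 39.2, 36.2 and 42.7 when stimulated in the same set. Its log2 fold change was 2.08 ± 0.34 there (SE, adjusted p 0.000448, edgeR), and 1.46, 1.30 and 1.49 in the other sets. Nrn1, a surface protein that promotes neurite growth, passed in no set. Its values were 0.70 and 0.43 with vector and 0.09 and 0.35 with upACSS2, in PBS and tau.

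Scg2, a granin of secretory granules, was 381, 291 and 284 CPM at rest and 720, 600 and 682 when stimulated with vector in PBS (log2 fold change 1.07 ± 0.21, SE, adjusted p 0.00327, edgeR). It also rose with vector in tau (0.98) and upACSS2 in tau (0.93), and with upACSS2 in PBS it was 0.63 (adjusted p 0.105). Vgf, a precursor of secreted peptides, passed with vector in PBS alone. There its resting values of 546, 149 and 141 CPM overlapped the stimulated 1000, 510 and 752 (1.44 ± 0.43, adjusted p 0.0494).

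Pcsk1, the convertase that cuts such precursors, passed in the same set alone, with 81.3, 48.4 and 28.8 CPM at rest and 177, 90.4 and 145 when stimulated (1.38 ± 0.39, SE, adjusted p 0.0357, edgeR). In those resting libraries the 8 neuron markers summed to 7379, 5084 and 4576 CPM and the 6 astrocyte markers to 7161, 3874 and 18908. In the stimulated ones the sums were 7665, 6521 and 7346 and 8595, 5020 and 8453. Their part in these results was not tested, and in bulk RNA fewer cells of a type and less RNA per cell cannot be told apart.

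Rgs2, which limits signalling through Gq-coupled receptors, was 59.1, 65.7 and 48.1 CPM at rest and 300, 329 and 388 when stimulated with vector in PBS. Its groups did not overlap in any set. The log2 fold changes were 2.56 ± 0.16 with vector in PBS, 2.12 ± 0.16 with vector in tau, 1.81 ± 0.15 with upACSS2 in PBS and 1.95 ± 0.16 with upACSS2 in tau (SE, largest adjusted p 9.43e-08, edgeR).

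**Figure D2:**
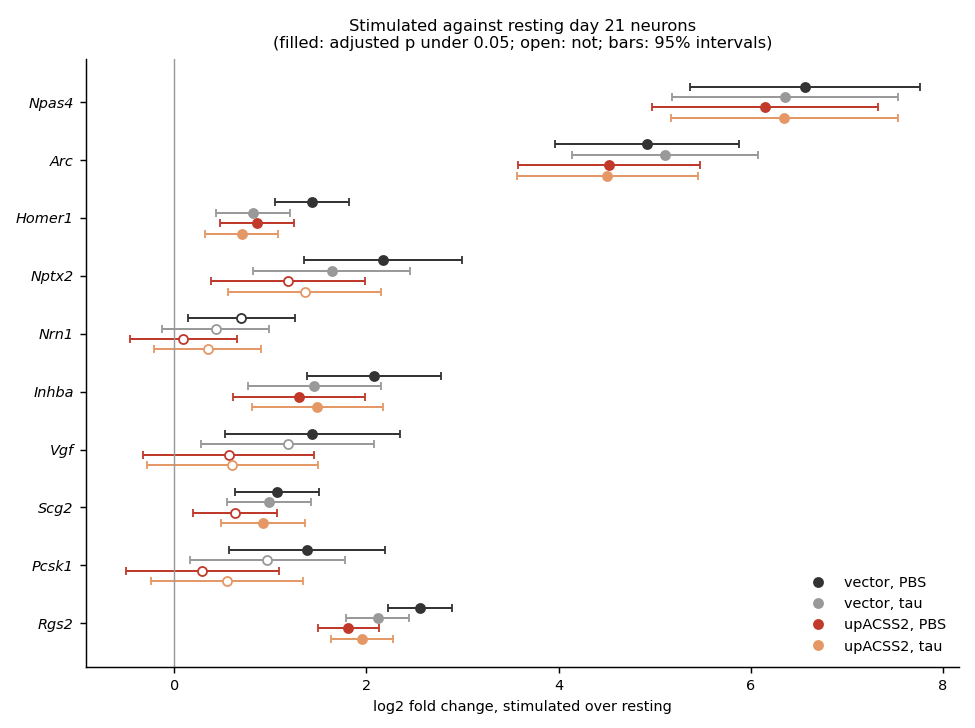
Log2 fold changes of stimulated over resting day 21 neurons (horizontal axis) for the 10 genes in 4 sets, with 95% intervals; filled points passed the threshold. Npas4 (6.57 with vector in PBS) and Arc (4.92) lie farthest right, and Nrn1 is open in every set.

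Arc, Npas4 and Rgs2 kept their calls in every fit that left out 1 library, in all 4 sets. With vector in PBS, Pcsk1 and Vgf lost theirs without resting replicate 2 or 3 or stimulated replicate 1 or 3. With vector in tau 3 members passed without resting replicate 2, 4 without stimulated replicate 3, and 4 with only the compared libraries in the fit, where Homer1, Inhba and Scg2 were lost. There Inhba was lost without resting replicate 1 or 2 or stimulated replicate 3, and Nptx2 without these or stimulated replicate 2. Homer1 was lost without resting replicate 2 or stimulated replicate 2, and Scg2 without resting replicate 2 or stimulated replicate 3. With upACSS2 in PBS, Inhba was lost without resting replicate 2 or 3 or stimulated replicate 1 or 3 and with only the compared libraries, and Homer1 without resting replicate 2, where 3 passed. In tau 3 passed without resting replicate 1 or 2 or stimulated replicate 3. There Inhba and Scg2 were lost, 4 passed without stimulated replicate 1, where Scg2 was lost, and Homer1 was lost in every one of the 6 fits. In PBS, where same-numbered libraries deviated together, the replicate block gave 7, adding Nptx2 and Scg2.

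Whether the response to stimulation differed with tau or virus was tested as an interaction. For tau, with vector, 0 members passed (background 0%, 261 genes and 1 member, Homer1, at an unadjusted p under 0.05, edgeR; DESeq2 0). For the virus, in PBS, 0 passed (background 0%, 1024 genes and 2 members, Homer1 and Rgs2, unadjusted; DESeq2 0). All 10 virus differences were below 0, with a median of -0.67 against -0.01 over all genes tested. For Rgs2 the difference was -0.74 (95% interval -1.19 to -0.30, adjusted p 0.707) and for Arc -0.39 (-1.55 to 0.77). At rest in PBS all 10 members lay higher with upACSS2 than with vector (median 0.51, 0 called). When stimulated, 3 lay higher and 7 lower (median -0.15, 0 called). A weaker response and a higher resting level with upACSS2 cannot be told apart in this interaction. Marker sums of the resting vector libraries, given above with Pcsk1, varied, and their part was not tested.

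Other activity genes were counted from lists, in the order vector in PBS, vector in tau, upACSS2 in PBS and upACSS2 in tau. Of 19 transcription factors 18, 17, 18 and 17 were higher, with median log2 fold changes of 4.51, 4.42, 4.01 and 4.06. With vector in PBS Fosb rose by 7.29 and Klf4 by 7.24. Of 14 feedback regulators 12, 11, 11 and 10 were higher, among them the phosphatase gene Dusp1 (4.89 with vector in PBS). Of 12 other effectors 3, 2, 2 and 1 were higher, such as Ptgs2, the inducible cyclooxygenase (3.42), and the growth factor gene Bdnf (1.53). Of 24 receptors and other partners of the members 2 were higher with vector in PBS, Shank1 (0.95) and Gnaq (0.44), and 0 in each other set. The medians of the 10 members were 1.76, 1.32, 1.02 and 1.14, against -0.03, -0.02, -0.01 and -0.01 over all genes.

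Within stimulated neurons, Homer1 was lower with tau in vector cells. It was 166, 132 and 162 CPM in PBS and 102, 113 and 99.5 in tau, without overlap (-0.54 ± 0.13 on the log2 scale, SE, adjusted p 0.0453, edgeR). It was the 1 member called, against 1.76% of genes called lower. Npas4 and Rgs2 also had an unadjusted p under 0.05 (edgeR). Npas4 was higher with tau (mean 852 CPM against 657 in PBS) and Rgs2 lower (261 against 333). In all, 4 members lay above 0 and 6 below. The Homer1 call was lost without PBS replicate 1 or 3 or tau replicate 1 or 3, and with only the compared libraries. Astrocyte markers summed to 8595, 5020 and 8453 CPM in the PBS libraries and 3594, 3339 and 1504 in the tau libraries, and their part was not tested. Of the lists, 4 transcription factors were lower (Nr4a2 -1.12 and Egr3 -0.86) and 1 higher.

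With upACSS2, Homer1 was 167, 133 and 166 CPM in PBS and 183, 141 and 147 in tau. 0 members passed there for tau (background 0.208%, Npas4 and Inhba unadjusted, edgeR; DESeq2 1, Npas4). In tau, Homer1 with upACSS2 lay above vector by 0.58 (95% interval 0.31 to 0.85, adjusted p 0.0551). 0 members passed (background 0.937%, 4 unadjusted), while DESeq2 called Homer1 and Nptx2. Homer1 passed with the replicate block, in a comparison whose same-numbered libraries deviated together, and without vector replicate 2. Astrocyte markers summed to 6550, 6341 and 5981 CPM with upACSS2 and 3594, 3339 and 1504 with vector in these tau libraries, without overlap, and their part was not tested. In PBS 0 members passed for the virus (background 0.208%, Npas4 unadjusted; DESeq2 0). The interaction of virus and tau called 0 members and 0 genes (background 0%, 2135 genes and 3 members unadjusted; DESeq2 0), with 0.56 for Homer1 (95% interval 0.18 to 0.94).

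On day 9, 2 days after tau, 6 of the 10 genes were lower with tau in resting vector neurons: Npas4, Rgs2, Vgf, Nptx2, Pcsk1 and Scg2, against 2.27% of genes called lower. CPM of resting neurons are from here on scaled over the 24 unstimulated libraries, so they differ slightly from those given with stimulation. Npas4 was 15.9, 14.8 and 12.97 CPM in PBS and 5.72, 4.61 and 7.30 in tau, without overlap (-1.34 ± 0.18 on the log2 scale, SE, adjusted p 0.000449, edgeR). Rgs2 was 46.8, 37.3 and 32.8 CPM in PBS and 24.9, 25.9 and 30.4 in tau, again without overlap (-0.56 ± 0.11, adjusted p 0.00581). Every tau library lay below every PBS library for both genes.

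Vgf was 150, 110 and 97.6 CPM in PBS and 76.3, 65.5 and 105 in tau, which overlap (-0.56 ± 0.13 on the log2 scale, SE, adjusted p 0.0208, edgeR). The changes of Nptx2 (-0.37), Pcsk1 (-0.35) and Scg2 (-0.17) were smaller. Arc was 9.23, 6.03 and 6.18 CPM in PBS and 3.73, 3.73 and 6.37 in tau and missed the threshold (-0.72, adjusted p 0.0590). Nrn1 was -0.17 (adjusted p 0.0825), and Homer1 and Inhba were -0.01 and 0.01.

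Npas4 was the 1 member called in every fit that left out a library. It was alone without PBS replicate 1 and without tau replicate 1 or 2, and with all 24 unstimulated libraries in 1 fit no member passed. DESeq2 called Npas4, Rgs2 and Scg2, and the fit of the compared libraries alone Npas4, Pcsk1 and Rgs2. The biological coefficient of variation was 0.042 over the 12 day 9 libraries and 0.135 over all 24.

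**Figure D3:**
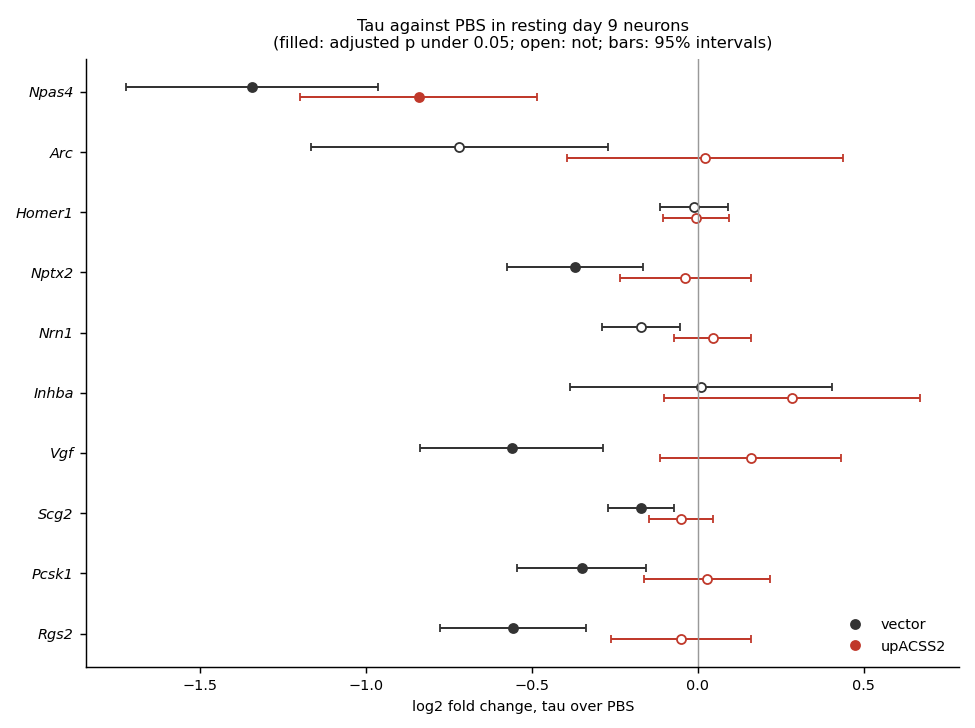
Log2 fold changes of tau over PBS in resting day 9 neurons (horizontal axis) for the 10 genes, with 95% intervals, for vector (dark) and upACSS2 (red); filled points passed the threshold. Npas4 is filled for both, at -1.34 and -0.84.

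With upACSS2, Npas4 was 10.4, 8.58 and 16.9 CPM in PBS and 6.90, 6.02 and 7.09 in tau (-0.84 ± 0.17 on the log2 scale, SE, adjusted p 0.0370, edgeR). It was the 1 member lower, against 0.136% of genes. The call was lost in DESeq2, in the fit of all 24 libraries, and without PBS replicate 1 or 3 or any 1 tau replicate. Rgs2 was 32.3, 31.9 and 38.4 CPM in PBS and 35.9, 33.3 and 30.1 in tau (-0.05, 95% interval -0.26 to 0.16). Vgf was 84.0, 79.4 and 104 CPM in PBS and 102, 101 and 96.5 in tau (0.16, -0.11 to 0.43).

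The difference between the tau changes of the viruses was tested in a contrast added after these values were seen. It called 0 members (background 0.663%, 6 members unadjusted, edgeR), and DESeq2 called Rgs2. All 10 differences were above 0, with a median of 0.35 against 0.00 over all genes. For Vgf the difference was 0.72 (95% interval 0.33 to 1.11, adjusted p 0.0613) and for Rgs2 0.51 (0.20 to 0.81, adjusted p 0.0866). Without the filter 5 members passed, without vector tau replicate 3 there were 3, and without replicate 3 of upACSS2 or vector in PBS there were 2.

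Between the viruses in PBS on day 9, Vgf was the 1 member called lower with upACSS2, against 5.35% of genes called lower. Its change was -0.44 ± 0.13 on the log2 scale (SE, adjusted p 0.0352, edgeR). Its libraries overlap, and the call was lost without upACSS2 replicate 1 or 2 or vector replicate 1, in DESeq2 and with all 24 libraries. Without replicate 3 of either group 4 members passed. In the main fit 7 members had an unadjusted p under 0.05 (edgeR), as did 3679 of 14022 genes. By sign 1 member lay above 0 and 9 below, with a median of -0.23 against -0.002 over all genes. These PBS libraries also enter the interaction above. A lower PBS level with upACSS2 and a smaller drop with tau cannot be told apart in it. Both oligodendrocyte precursor markers were lower with upACSS2 in PBS and summed to 5.15 to 6.39 CPM, against 9.17 to 20.8 with vector. Of the oligodendrocyte markers 1 was lower, and of the 8 neuron markers 3 were higher and 1 lower, with sums of 7214 to 7509 CPM with upACSS2 and 6667 to 6900 with vector. The part of these cells was not tested. In tau 0 members passed (background 0.692%, Homer1, Vgf and Rgs2 unadjusted; DESeq2 0). 

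In the lists, 9 of 19 transcription factors were lower with tau in day 9 vector neurons, among them Fosb (-1.63) and Fos (-0.87). Of 14 feedback regulators 4 were lower (Gadd45g -0.62 and Rgs4 -0.56), and of 12 other effectors 2 (Bdnf -0.52 and Rheb -0.17). Of 25 partners 2 were higher, among them the activin receptor gene Acvr1b (0.16). With upACSS2 these lists of activity genes and partners held 0 called genes for tau. Medians with vector were -0.37, -0.34, -0.13 and 0.06 in that order, -0.36 for the members and 0.00 over all genes. Neuron markers summed to 6900, 6667 and 6868 CPM in PBS and 7383, 7446 and 7113 in tau. The sums of astrocyte markers were 1382, 1258 and 1361 CPM in PBS and 1498, 1371 and 1607 in tau. Of the 6 astrocyte markers 2 lay above 0 with tau and 4 below (median -0.08), and 1 was called higher. Both oligodendrocyte precursor markers lay below 0 (median -0.72), and 1 was called lower. The part of these cells was not tested.

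Between day 9 and day 21 most genes of the resting vector neurons moved, the members among them. In PBS Arc, Inhba, Nrn1, Rgs2 and Vgf were higher on day 21 (background 30.6%) and Homer1 was lower (27.1%). In tau the same 5 genes, Nptx2 and Scg2 were higher (27.7%) and Homer1 was lower (24.9%). Arc in PBS was 9.23, 6.03 and 6.18 CPM on day 9 and 41.8, 27.6 and 19.0 on day 21, without overlap (2.01 ± 0.44 on the log2 scale, SE, adjusted p 0.000678, edgeR), and its change in tau was 2.83.

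Nrn1 in PBS was 93.3, 88.6 and 84.6 CPM on day 9 and 277, 206 and 106 on day 21 (1.14 ± 0.24 on the log2 scale, SE, adjusted p 0.000408, edgeR). Homer1 was 95.8, 85.7 and 93.8 CPM and 70.8, 52.8 and 43.2 (-0.73 ± 0.16, adjusted p 0.000804). Neither gene overlapped between the days. Npas4 was 15.9, 14.8 and 12.97 CPM and 5.84, 6.08 and 8.29 and missed the threshold (-1.11, adjusted p 0.0642).

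Arc, Homer1, Nrn1 and Rgs2 were called in every fit without 1 library, in PBS and tau. In PBS 4 members passed without day 21 replicate 1 or day 9 replicate 2, where Inhba and Vgf were lost, and Vgf was lost without day 9 replicate 3. In tau Nptx2 was called only without day 21 replicate 2 among the 6 such fits, and was lost with RLE scaling. Scg2 was lost there without day 21 replicate 1 or 3 or day 9 replicate 1, and Inhba without day 21 replicate 3 or day 9 replicate 1, where 5 members passed. Astrocyte markers summed to 1258 to 1607 CPM in these day 9 libraries and 2542 to 18908 in those of day 21. The sums were 17.5 to 21.6 and 201 to 626 CPM for oligodendrocyte markers, and 6.86 to 20.8 and 290 to 515 for those of their precursors. The part of these cells was not tested. Of the lists in PBS, 6 of 12 other effectors were higher and 0 lower (the neuropeptide genes Npy 2.71 and Penk 2.71), and of 25 partners 4 were higher and 11 lower (Fstl3 -1.48 and Homer2 -1.29).

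In resting day 21 neurons no member was called for virus or tau. In PBS Rgs2 was 90.7, 82.5 and 108 CPM with upACSS2 and 57.2, 63.8 and 46.0 with vector, without overlap (0.74 ± 0.13 on the log2 scale, SE, adjusted p 0.0901, edgeR; background 0.0137%). Homer1, Pcsk1 and Rgs2 had an unadjusted p under 0.05. DESeq2 called Rgs2, and the fit of all 24 unstimulated libraries Homer1 and Rgs2. In tau Homer1 was 96.0, 102 and 84.1 CPM with upACSS2 and 64.8, 42.9 and 67.6 with vector, without overlap (0.70 ± 0.21, adjusted p 0.304; background 0.0273%). There 3 members were unadjusted, DESeq2 called 0 and the 24-library fit Homer1. Neuron markers in PBS summed to 6168 to 7384 CPM with upACSS2 and 4576 to 7379 with vector. In tau their sums were 6934 to 7631 and 4895 to 7229. Astrocyte markers summed to 3059 to 5690 and 3874 to 18908 CPM in PBS, and 4940 to 10346 and 2542 to 4785 in tau. The part of these cells was not tested.

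Tau against PBS on day 21 called 0 members with vector (background 0%, 1361 genes and 0 members unadjusted, edgeR; DESeq2 0) and 0 with upACSS2 (0%, 931 genes and 0 members unadjusted; DESeq2 0). Without virus it called 0 (0%, 2272 genes and 3 members unadjusted; DESeq2 0). There Npas4 was 1.88, 2.86, 5.50 and 2.02 CPM in tau and 4.39, 4.77 and 11.9 in PBS (-1.21, 95% interval -2.38 to -0.05, adjusted p 0.347). Scg2 was 78.3, 93.8, 128 and 63.0 CPM in tau and 119, 123 and 388 in PBS. PBS replicate 3 was the high library for both genes. Astrocyte markers summed to 6431, 7710 and 1332 CPM in the PBS libraries and 5465 to 11209 in tau, and neuron markers to 3667, 3354 and 5849 and 2433 to 3279; their part was not tested.

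In the hippocampus no member passed between upACSS2 and vector in any mouse group. With edgeR no gene at all passed there, so the raised Acss2 of the virus was not called either. In aged mice the 10 log2 fold changes lay between -0.18 and 0.12 (95% intervals within -0.45 to 0.39, lowest adjusted p 0.927, edgeR). The background was 0%, with 846 genes and 0 members unadjusted, and DESeq2 called 0. Arc was 135, 170 and 333 CPM (lowest, median, highest) with upACSS2 and 161, 182 and 383 with vector. Npas4 was 8.83, 12.6 and 26.2 CPM and 8.37, 13.7 and 25.4. The groups overlap for both genes.

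Aged replicates 1 to 3 stood apart from 4 to 12 on the first principal component of 2000 genes (32.8% of variance, -32.3 to -17.3 against 3.57 to 17.6). With a term for this set, with replicates 4 to 12 alone, and without vector replicate 1, 0 members passed. Rgs2 was 36.3, 38.7 and 45.6 CPM (lowest, median, highest) in replicates 1 to 3 and 41.8, 50.1 and 65.6 in 4 to 12, and Nptx2 was 13.8, 17.4 and 28.2 and 19.3, 29.7 and 40.4.

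**Figure D4:**
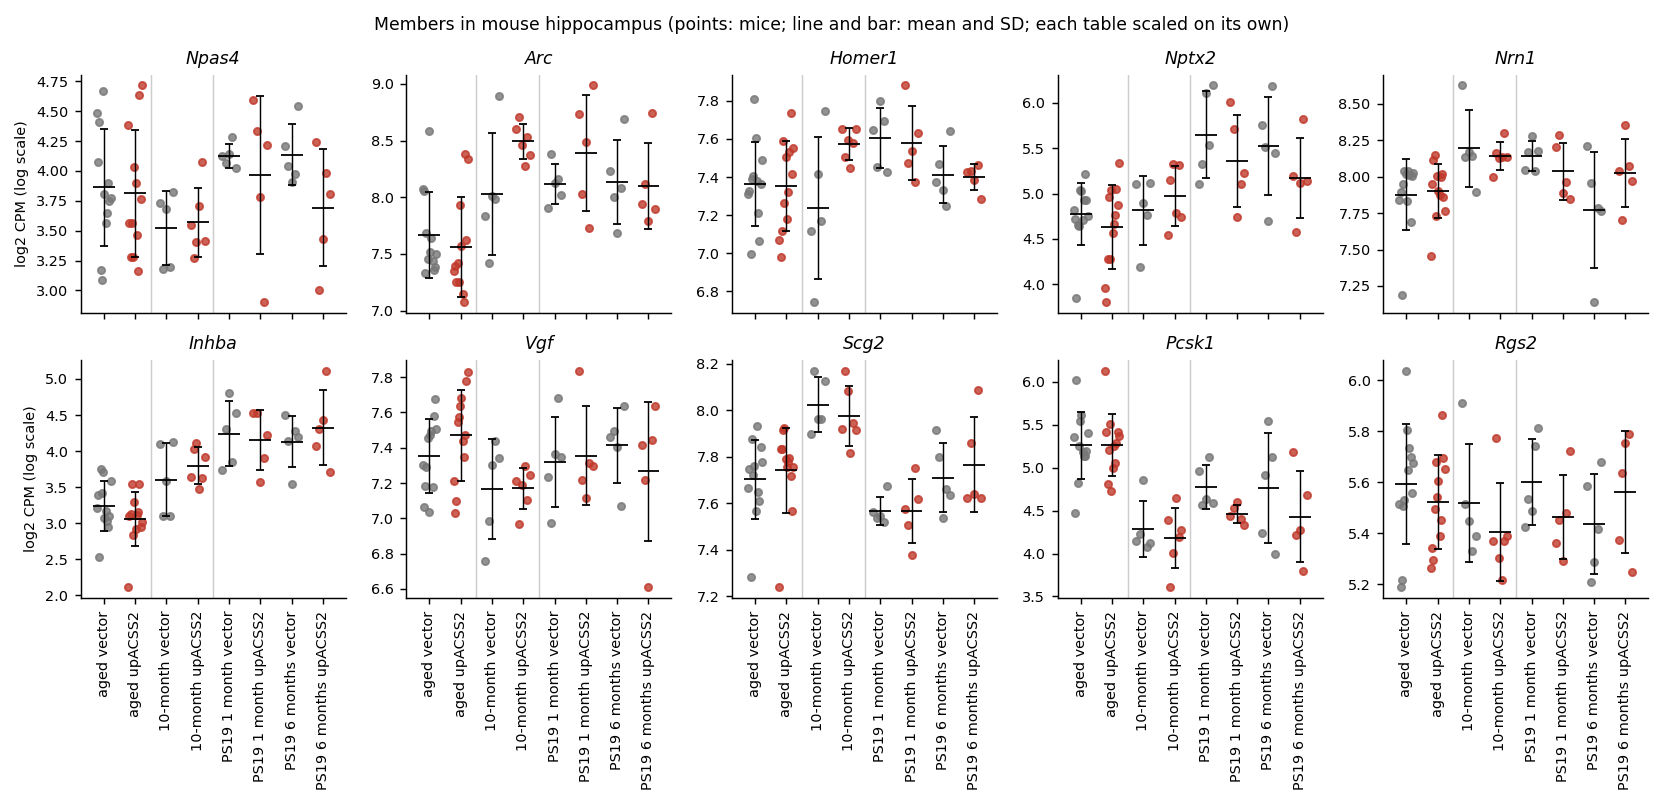
Levels of the 10 genes in the mouse groups as log2 CPM on the vertical axis, 1 point per mouse with the mean and SD, grey for vector and red for upACSS2; each table was scaled on its own. Vector and upACSS2 mice overlap, as for Arc in aged mice (161 to 383 and 135 to 333 CPM).

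At 10 months Arc was 310, 361 and 418 CPM (lowest, median, highest) with upACSS2 and 228, 171, 258, 253 and 476 with vector. The highest mouse was a vector mouse and the other 4 vector mice lay below every upACSS2 mouse (0.39 on the log2 scale, 95% interval -0.02 to 0.79, adjusted p 0.571, edgeR). Homer1 was 174, 192 and 201 CPM with upACSS2 and 139, 107, 170, 144 and 214 with vector (0.30, adjusted p 0.548). 0 members passed (background 0%, 1204 genes and Homer1 unadjusted; DESeq2 0).

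In PS19 mice 0 members passed for the virus at 1 month (background 0%, 463 genes and 0 members unadjusted, edgeR; DESeq2 0) and 0 at 6 months (0%, 2237 genes and 0 members unadjusted; DESeq2 0). Arc at 1 month was 425, 261, 359, 211 and 507 CPM with upACSS2 and 240, 334, 279, 287 and 260 with vector (0.33, 95% interval -0.13 to 0.80). Npas4 at 6 months was 18.8, 7.89, 10.7, 15.7 and 13.9 CPM with upACSS2 and 18.4, 16.3, 14.9, 15.6 and 23.2 with vector (-0.38, -0.88 to 0.11). Both genes overlap between the viruses. From 1 to 6 months in vector mice 7.46% of genes and 0 members passed, with 5 members above 0 and 5 below. At that background so small a set can hold 0 calls, so the members cannot be set apart from other genes there. Nrn1, unadjusted, was 296, 249, 141, 220 and 217 CPM at 6 months and 264, 288, 310, 262 and 289 at 1 month (-0.33, adjusted p 0.168, edgeR; DESeq2 0). Age and time with the virus move together there.

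Arc varied among mice of a group, and its relation to the other members was taken over the 18 aged mice of replicates 4 to 12. Npas4 went with Arc (Pearson r 0.85, permutation p 0.0001, 0.0176 adjusted over 15156 genes; Spearman rho 0.63, permutation p 0.00599, adjusted 0.218). Rgs2 (r 0.66, permutation p 0.00364, adjusted 0.0636; rho 0.43, p 0.0766) and Homer1 (r 0.64, permutation p 0.00452, adjusted 0.0714; rho 0.51, p 0.0319) missed the threshold. Without the 2 mice farthest from the median of Arc, vector replicate 6 and upACSS2 replicate 10, r was 0.73 for Npas4 (rho 0.49). It was 0.26 for Rgs2 (rho 0.19) and 0.31 for Homer1 (rho 0.31), so the values of Rgs2 and Homer1 rest on those mice. UpACSS2 replicate 12, also high in both Arc (8.34 log2 CPM) and Npas4 (4.72), stayed in. Within the 9 vector mice r for Npas4 was 0.66, and within the 9 upACSS2 mice 0.98. The vector value leaned on replicate 6, with Arc at 8.58 and Npas4 at 4.67 log2 CPM. Among the other vector mice Arc was highest in replicate 4 (7.69), with Npas4 at 3.17. It was lowest in replicate 10 (7.36), with Npas4 at 3.90.

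**Figure D5:**
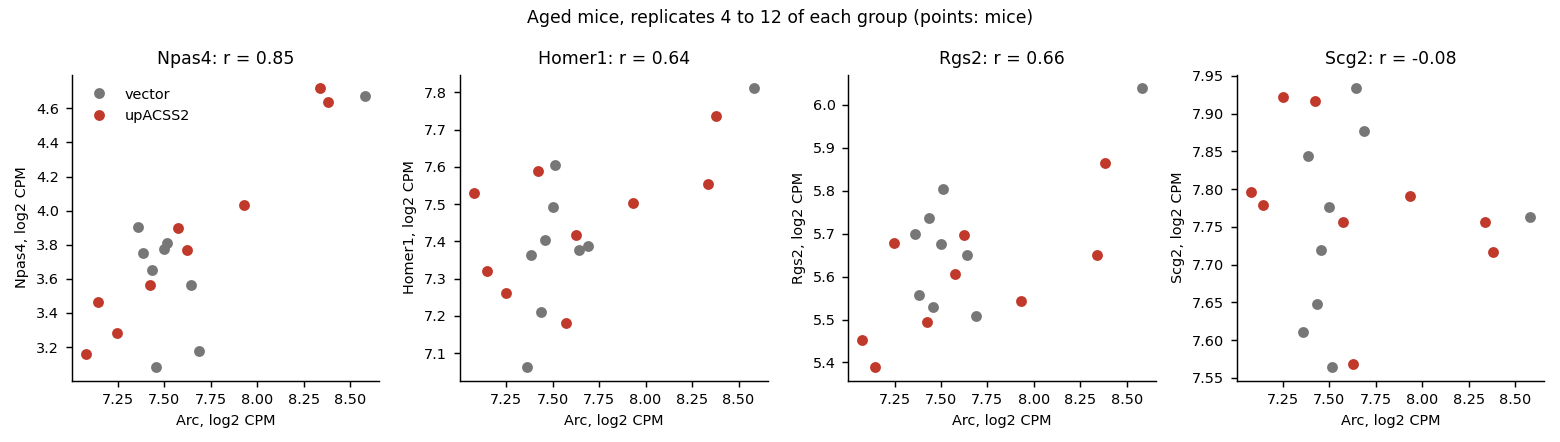
Arc (horizontal axis) against Npas4, Homer1, Rgs2 and Scg2 (vertical axes) in 18 aged mice, in log2 CPM, grey for vector and red for upACSS2. Npas4 rises with Arc (r 0.85), with 3 mice apart at the top, and Scg2 shows no slope (r -0.08).

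For the other members r was 0.53 for Nptx2, 0.43 for Inhba, 0.14 for Pcsk1, 0.10 for Nrn1, -0.08 for Scg2 and -0.09 for Vgf. Of all genes 4.01% passed for r. The 5 genes most like Arc by r over these mice were Nr4a1 (0.97), Egr2 (0.94), Egr1 (0.94), Trib1 (0.92) and Mb21d2 (0.91), given as a description. With all 24 aged mice r was 0.73 for Npas4 (adjusted permutation p 0.0229), 0.46 for Rgs2 and 0.58 for Homer1.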

How the data were processed

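For 98 mouse libraries the authors deposited 6 tables of raw read counts, 1 row per gene symbol. The submitters' processing notes name STAR, featureCounts, HTSeq, DESeq2 and mm10; roles, versions, strand and the handling of shared reads are not given in the sources used here. Per the labels' protocols, Trizol and column RNA went into an NEB library kit. A row without a gene name, 6.13% to 8.74% of counts in the table without virus, was left out. The lowest chi-square over degrees of freedom between libraries of 1 group was 2.32, so none was counted as a repeat.

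The test was that of edgeR 4.0.16, run in R 4.3.3 (TMM, filterByExpr, two-sided quasi-likelihood F test, Benjamini-Hochberg over all genes tested, threshold 0.05) in 28 contrasts, 1 of them added after values were seen. CPM use TMM-scaled library sizes, log2 CPM a prior count of 2, and correlations 100000 permutations of mice. Day 9 and day 21 were fitted apart because their spread differed. For stimulation, 25239 genes of 2 tables were joined by symbol. Depth, 5075099 to 39985460 counts per library, limits low genes such as Npas4 most. Alternatives were no filter, RLE scaling, DESeq2 1.42.0, other libraries in the fit, the replicate block, each library left out (in aged mice only vector replicate 1), aged replicate sets and a prior count of 0.5. The pipeline was tested on simulated data. The members and lists were chosen with earlier results of these data known. All members are named; other names are Acss2, at most 2 genes past the threshold with the largest change per list and comparison, and the 5 genes most like Arc. A gene that this rule also selects is not reported here.

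Same-numbered libraries deviated together, each correlation over 0.1, in 4 comparisons: tau without virus (0.22 to 0.39), the virus in stimulated neurons with tau (0.11 to 0.36), stimulated tau against PBS with vector (0.12 to 0.33) and stimulated against resting upACSS2 in PBS (0.37 to 0.58). The labels do not say what the numbers share.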

Additional observations from a re-analysis of the deposited data

Results flagged for a closer look

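Of 70 sets of values, each 1 gene in 1 group of 4 to 10 libraries, 4 held a library far from the rest of its group, and chance flags about 1 in 20. Rgs2 in 10-month upACSS2 replicate 2 was 5.78 log2 CPM (54.5 CPM, against 36.9 to 41.6 in the other mice). Pcsk1 in 10-month vector replicate 3 was 4.86 log2 CPM (28.7 CPM, against 16.6 to 18.4). Vgf in PS19 upACSS2 replicate 1 at 1 month was 7.84 log2 CPM (228 CPM, against 138 to 159). Scg2 in PS19 vector replicate 5 at 1 month was 7.67 log2 CPM (204 CPM, against 183 to 189), and the treatment entry of that mouse contradicts its title.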

How the results depend on the processing

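Counts of members called moved most on day 9. No log2 fold change that was called in the main fit or in the alternative turned sign. Among values called in neither, 151 turned sign when 1 library was left out. For upACSS2 against vector in PBS on day 9, DESeq2 gave 0, no filter 5 and all 24 unstimulated libraries 0; in tau no filter gave 2. For day 9 tau with vector, DESeq2 gave 3, only the compared groups 3, no filter 8 and all 24 libraries 0; with upACSS2 DESeq2 and all 24 libraries gave 0. The day 9 interaction, chosen after seeing the data, gave 1 in DESeq2 and 5 without the filter. On day 21, upACSS2 against vector gave 1 in DESeq2 and 2 with all 24 libraries in PBS, and 1 with all 24 in tau. In stimulated neurons, upACSS2 against vector in tau gave 2 in DESeq2 and 1 without the filter, tau with vector gave 0 with only the compared groups, tau with upACSS2 gave 1 in DESeq2, and stimulation with vector in tau gave 4 with only the compared groups. The cause was not tested.

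With the replicate block, stimulated upACSS2 against vector in tau gave 1 in place of 0 and stimulation of upACSS2 neurons in PBS gave 7 in place of 5. Of the comparisons whose libraries deviated together, the block changed no other call of a member. Where they share only a number, it gave 1 in place of 0 for stimulated tau with upACSS2, 5 in place of 6 for day 9 tau with vector, 7 in place of 6 for day 21 against day 9 in PBS, and 7 in place of 6 for stimulation with upACSS2 in tau.

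Leaving out 1 library gave 0 to 4 members for day 9 upACSS2 against vector in PBS, 1 to 8 for day 9 tau with vector, 0 to 1 with upACSS2 and 0 to 3 for their interaction. It gave 4 to 6 and 5 to 9 for day 21 against day 9 in PBS and tau. For stimulation it gave 7 to 10 with vector in PBS, 3 to 7 with vector in tau, 3 to 5 with upACSS2 in PBS and 3 to 6 with upACSS2 in tau. It gave 0 to 1 for stimulated tau with vector and for stimulated upACSS2 against vector in tau, and 0 in the other comparisons, where in aged mice only vector replicate 1 was left out.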
